A study of Mus musculus with 36 samples.

Results

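Interferon-stimulated genes are the genes that cells switch on when interferon reaches their surface. The 9 described here, *Isg15*, *Rsad2*, *Bst2*, *Ifit1*, *Ifit3*, *Oasl2*, *Irf7*, *Usp18* and *Cxcl10*, were taken by symbol from a table of 56246 genes, and each symbol stood on 1 row. They were followed in bulk RNA of the tibiae of 36 mice, all 6 months old. The 12 wild-type (WT) mice carried the treatment label NT, the 12 saline mice and the 12 ABE mice carried LMNAG608G/G608G (*LMNA* G/G) and were injected retro-orbitally at P14, 14 days after birth, and each group held 6 males and 6 females. *LMNA* G/G mice have a double copy of a human BAC transgene with the progeria allele of *LMNA*, which also brings the human gene *RAB25*, on top of their own *Lmna*. ABE is an adenine base editor that was delivered in split form by adeno-associated virus and acts on the mutated base. Epiphyses and marrow had been removed before RNA was extracted. The WT mice were numbered in a series of their own and their labels give no injection, so genotype, injection and any batch cannot be told apart in a comparison with WT.

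Type I interferons bind the receptor pair *Ifnar1* and *Ifnar2*, whose kinases *Jak1* and *Tyk2* pass the signal on. A complex that holds *Irf9* then binds interferon-stimulated response elements in target promoters. The targets include antiviral effectors, a transcription factor that amplifies the response (*Irf7*) and a brake on it (*Usp18*). In progeria and in ageing cells, interferon responses are known to follow the sensing of misplaced nucleic acids.

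The promoters of the members are shown first because the response element is where the complex that holds *Irf9* binds. RefSeq windows (GRCm38.p6) of 250 bases before to 50 bases after the start were matched by symbol for 8 members, all but *Usp18*. The element was searched on both strands as GAAANNGAAA, where N is any base. It was found in 6 of the 8 windows, against 3.443% of the 32851 windows in the table, and at least 2 matches stood in 4 of the 8, against 0.225%. Of 44 other type I interferon targets with a window, 18 held a match. The windows of *Irf7* and *Oasl2* held none. The stretches below run 5′ to 3′ along the gene and lie wholly before the start, with up to 50 bases on either side of the matches, and capitals mark the matches, on the gene strand for *Isg15*, *Bst2* and *Cxcl10* and on the other strand for *Rsad2*, *Ifit1* and *Ifit3*.
Isg15: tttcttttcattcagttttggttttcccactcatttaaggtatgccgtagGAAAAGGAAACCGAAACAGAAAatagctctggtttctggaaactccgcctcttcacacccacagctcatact
Bst2: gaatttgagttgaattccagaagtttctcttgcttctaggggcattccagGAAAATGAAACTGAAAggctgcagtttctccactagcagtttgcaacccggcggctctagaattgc
Ifit1: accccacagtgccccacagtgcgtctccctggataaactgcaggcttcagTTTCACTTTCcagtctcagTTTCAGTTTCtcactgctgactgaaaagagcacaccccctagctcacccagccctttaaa
Ifit3: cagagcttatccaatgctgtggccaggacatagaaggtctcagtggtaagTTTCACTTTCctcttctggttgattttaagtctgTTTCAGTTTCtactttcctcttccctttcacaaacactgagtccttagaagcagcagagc
Rsad2: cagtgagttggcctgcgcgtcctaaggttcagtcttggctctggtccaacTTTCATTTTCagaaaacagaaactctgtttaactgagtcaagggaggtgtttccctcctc
Cxcl10: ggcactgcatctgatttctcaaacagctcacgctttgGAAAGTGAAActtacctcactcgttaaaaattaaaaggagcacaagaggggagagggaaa

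The *Isg15* stretch (chr4:156200825-156200946, minus strand) holds 3 matches that overlap each other, the first of them 78 bases before the start. The *Bst2* stretch (chr8:71537537-71537652, minus strand) holds 2 that overlap, from 130 bases before the start. *Ifit1* (chr19:34640735-34640863) and *Ifit3* (chr19:34583323-34583466), both on the plus strand, hold the same pair of matched letters in the same order, 104 and 85 bases before the start in *Ifit1* and 156 and 122 in *Ifit3*. *Rsad2* (chr12:26456513-26456622) and *Cxcl10* (chr5:92349043-92349139), both on the minus strand, hold 1 match each, 120 and 213 bases before the start. The gamma-activated sequence TTCNNNGAA, which is the same on both strands, was found in the *Bst2* window alone of the 8, overlapping the first response element match, and in 8.298% of all windows. A match is a run of letters and was not measured as a bound site.

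In the annotation (GENCODE, GRCm38), *Isg15* lies at chr4:156199424-156200818, *Rsad2* at chr12:26442746-26456452, *Bst2* at chr8:71534255-71537456, *Irf7* at chr7:141262706-141266481 and *Cxcl10* at chr5:92346638-92348889, all on the minus strand. On the plus strand are *Usp18* at chr6:121245906-121270917, *Oasl2* at chr5:114896936-114912234, *Ifit3* at chr19:34583531-34588731 and *Ifit1* at chr19:34640871-34650009. *Rsad2* has *Cmpk2* as its neighbour at 12751 bp, and *Oasl2* has *Oasl1* at 11005 bp. Of the 50-base windows of its transcript, *Ifit3* shares 51.238% with *Ifit3b*, so reads may be split between the pair, and *Ifit1* shares 7.058% with *Ifit1bl2*. *Irf7*, *Usp18* and *Cxcl10* overlap *Phrf1*, *Gm44148* and *Art3* on the opposite strand. The libraries kept strand, but whether the counting used it was not given in the sources used here.

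Levels are given as scaled TPM (a level per length of gene and per total of the library, rescaled by 1 median ratio factor for each library). Over the 36 mice the mean scaled TPM was 9.78 for *Isg15*, 8.64 for *Rsad2* and 6.48 for *Bst2*, which made these the most abundant members. *Irf7* followed at 2.63, *Ifit3* at 1.76, *Oasl2* at 1.27, *Usp18* at 0.867, *Ifit1* at 0.690 and *Cxcl10* at 0.169. The lowest number of reads on a member in any library was 16 for *Cxcl10* and 166 for *Isg15*, and reads on genes ranged from 48064068 to 116206662 per library. Size factors ranged from 0.219, in the ABE female F109436, to 1.57, and results were also computed without this library.

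**Figure D1:**
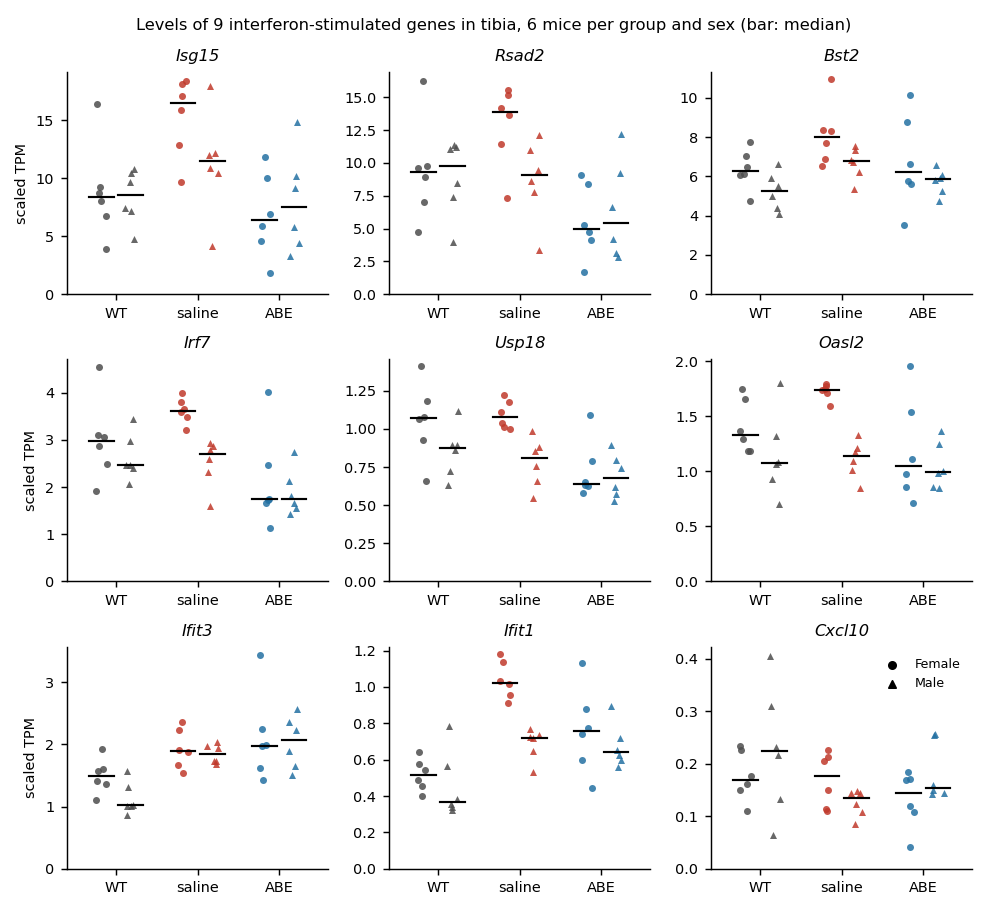
Scaled TPM of each member in every mouse (vertical axis, 1 panel per gene), by group on the horizontal axis, with females as circles, males as triangles and bars at the median of 6 mice. For *Ifit1* and *Ifit3* all 12 saline mice lie above the WT median, and for *Irf7* and *Usp18* 11 of 12 ABE mice lie below the saline median.

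Groups were compared with limma on log2(scaled TPM + 0.5) with sex as a covariate, which understates fold changes of low genes. A gene is said to be called, to have risen or to have fallen, where its Benjamini-Hochberg adjusted p over all 15902 genes with a mean of at least 0.5 scaled TPM was under 0.05. Of the 9 members 8 passed this filter, all but *Cxcl10*. Against WT, 4 of the 8 rose and 0 fell in saline mice, where 27.7% of all tested genes rose and 24.6% fell. In ABE mice 2 rose and 3 fell against WT, beside 35% and 35.2% of all genes. Between ABE and saline mice 0 rose and 5 fell, beside 23.2% and 25.1%. The shares of all genes called were large in each comparison, and the median log2 fold change of all genes was 0.02, -0.02 and -0.02. Saline and ABE mice were set against the same WT mice, so their differences from WT are not independent. In bulk RNA, fewer cells of a type and less RNA per cell cannot be told apart.

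The IFIT genes encode proteins that bind viral RNA and block its translation, and both IFIT members were higher in *LMNA* G/G mice, whichever injection these had received. *Ifit1* ran from 0.325 to 0.784 scaled TPM in WT (median 0.472), from 0.534 to 1.18 in saline mice (median 0.839) and from 0.442 to 1.13 in ABE mice (median 0.687). The groups overlapped at their edges, and all 12 saline mice and 11 of 12 ABE mice were above the WT median. Its mean was 0.488 ± 0.140 (SD, n = 12) in WT, 0.863 ± 0.205 in saline mice and 0.719 ± 0.184 in ABE mice.

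*Ifit1* was 1.77-fold higher in saline mice than in WT by the ratio of means, with a log2 fold change of 0.46 ± 0.08 (SE; limma, adjusted p = 7.19e-06). In ABE mice it was 1.47-fold higher than in WT (0.30 ± 0.08, limma adjusted p = 0.000779). Since *Ifit1* lies near the pseudocount, limma-voom on reads recovered from the TPM gave larger log2 fold changes, 0.83 and 0.56. Between ABE and saline mice *Ifit1* was not called: the log2 difference was -0.16, with a 95% interval from -0.31 to -0.01 and a limma adjusted p of 0.0794.

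*Ifit3* ran from 0.868 to 1.92 scaled TPM in WT (median 1.33), from 1.54 to 2.36 in saline mice (median 1.90) and from 1.43 to 3.44 in ABE mice (median 1.98). All 12 mice of both *LMNA* G/G groups stood above the WT median. The 6 saline males lay above the 6 WT males for *Ifit3*, and the 6 saline females above the 6 WT females for *Ifit1*. How many of all genes separated in this way was not counted. The means were 1.31 ± 0.316 (SD, n = 12) in WT, 1.89 ± 0.238 in saline mice and 2.08 ± 0.559 in ABE mice. The log2 fold change against WT was 0.41 ± 0.09 (SE) in saline mice (limma, adjusted p = 0.000461) and 0.50 ± 0.09 in ABE mice (limma, adjusted p = 2.07e-05). Between ABE and saline mice the log2 difference was 0.09, with a 95% interval from -0.10 to 0.27, and was not called (limma adjusted p = 0.468). *Ifit3b*, with which *Ifit3* shares sequence, had means of 0.365, 0.542 and 0.745 scaled TPM in WT, saline and ABE mice. *Ifit2*, the next gene before *Ifit3*, had means of 1.13, 1.11 and 1.005. The rises of *Ifit1* and *Ifit3* in ABE mice against WT were lost only with the TPM as deposited, of 16 other settings, with log2 fold changes of 0.03 and 0.09. On that scale the median log2 fold change of all genes was itself -0.42 in ABE mice against WT, and the rise of *Ifit3* in saline mice was also lost on it and in females alone.

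*Isg15* is a ubiquitin-like protein that is joined to other proteins and also secreted. It ran from 3.92 to 16.4 scaled TPM in WT (median 8.38), from 4.14 to 18.4 in saline mice (median 12.5) and from 1.85 to 14.9 in ABE mice (median 6.40). The groups overlapped over most of their range, although 11 of 12 saline mice were above the WT median and 11 of 12 ABE mice were below the saline median. The means were 8.61 ± 3.24 (SD, n = 12), 13.3 ± 4.33 and 7.40 ± 3.85.

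*Isg15* was 1.55-fold higher in saline mice than in WT, and this call was marginal, with a log2 fold change of 0.60 ± 0.26 (SE; limma, adjusted p = 0.0497). It was called in 8 of 17 other settings and in 12 of the 36 fits that left out 1 library. The fall from saline to ABE mice was larger, at -0.90 ± 0.26 (limma, adjusted p = 0.00556), and the mean fell by 44.4%. Against WT the ABE mice differed by -0.30, with a 95% interval from -0.80 to 0.20, which was not called (limma adjusted p = 0.300).

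*Rsad2* encodes viperin, an enzyme of the endoplasmic reticulum that makes a chain-terminating nucleotide. It ran from 4.01 to 16.2 scaled TPM in WT (median 9.28), from 3.33 to 15.6 in saline mice (median 11.2) and from 1.69 to 12.2 in ABE mice (median 4.99). ABE mice were mostly low, and 11 of 12 were below the saline median and below the WT median. The means were 9.15 ± 3.26 (SD, n = 12), 10.8 ± 3.65 and 5.97 ± 3.17. *Rsad2* fell by 0.88 ± 0.25 on the log2 scale from saline to ABE mice (limma, adjusted p = 0.00542) and by 0.66 ± 0.25 against WT (limma, adjusted p = 0.0192). The call against WT was lost without the 2 ABE libraries of lowest size factor, F109436 and F609472, and in either sex alone. In saline mice the log2 difference from WT was 0.22 (95% interval from -0.27 to 0.71, limma adjusted p = 0.478). *Cmpk2*, its neighbour, had means of 2.98, 2.54 and 1.68 scaled TPM in WT, saline and ABE mice, a log2 difference of -0.50 between ABE and saline mice (limma, adjusted p = 0.0044).

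*Irf7*, the transcription factor that amplifies interferon production, had the smallest adjusted p of the members between ABE and saline mice. It ran from 1.93 to 4.54 scaled TPM in WT (median 2.69), from 1.60 to 3.999 in saline mice (median 3.07) and from 1.14 to 4.03 in ABE mice (median 1.74). Of the 12 ABE mice, 11 were below the saline median and 8 were below the lowest WT mouse. The means were 2.82 ± 0.703 (SD, n = 12), 3.07 ± 0.692 and 2.01 ± 0.772. *Irf7* fell by 0.53 ± 0.13 on the log2 scale from saline to ABE mice (limma, adjusted p = 0.00178) and by 0.43 ± 0.13 against WT (limma, adjusted p = 0.00319). The call against WT was lost in females alone, with a score of erythroid markers as a covariate, and with scores of 4 cell types (neutrophil, B cell, macrophage and muscle) as covariates. Saline mice differed from WT by 0.10 (95% interval from -0.14 to 0.35, limma adjusted p = 0.506).

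*Usp18* removes ISG15 from proteins and holds back signalling at the interferon receptor. It ran from 0.629 to 1.41 scaled TPM in WT (median 0.910), from 0.548 to 1.22 in saline mice (median 0.991) and from 0.528 to 1.09 in ABE mice (median 0.641). The ABE mice crowded at the low end, with 11 of 12 below the saline median. *Usp18* fell by 0.25 ± 0.08 on the log2 scale from saline to ABE mice (limma, adjusted p = 0.00974) and by 0.26 ± 0.08 against WT (limma, adjusted p = 0.00334). The call against WT was lost in males alone and with the same covariates. Saline mice and WT had means of 0.938 ± 0.206 and 0.953 ± 0.229 (SD, n = 12), a log2 difference of -0.01 with a 95% interval from -0.16 to 0.14 (limma adjusted p = 0.901).

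*Oasl2*, a member of the oligoadenylate synthetase family, ran from 0.702 to 1.81 scaled TPM in WT (median 1.24), from 0.852 to 1.80 in saline mice (median 1.46) and from 0.715 to 1.96 in ABE mice (median 0.996). The highest value of all 36 was in an ABE female, F309431, while 10 of 12 ABE mice were below the saline median. *Oasl2* fell by 0.25 ± 0.10 on the log2 scale from saline to ABE mice (limma, adjusted p = 0.0381). This call held in 24 of the 36 fits without 1 library and was lost without F109436. It was not called against WT in saline mice (0.11, 95% interval from -0.08 to 0.31, limma adjusted p = 0.353) or in ABE mice (-0.14, from -0.33 to 0.06, limma adjusted p = 0.221).

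*Bst2* encodes tetherin, a membrane protein that holds budding viruses at the cell surface. It ran from 4.10 to 7.75 scaled TPM in WT (median 5.98), from 5.35 to 10.95 in saline mice (median 7.12) and from 3.54 to 10.2 in ABE mice (median 5.86). Of the saline mice 11 of 12 were above the WT median. The ABE mice reached below both other groups and above the WT mice, but not above the highest saline mouse. *Bst2* was 1.27-fold higher in saline mice than in WT, a log2 fold change of 0.33 ± 0.11 (limma, adjusted p = 0.0128). This call was lost with TPM as deposited (0.14), with the 4 cell type covariates (0.39 ± 0.14) and in females alone (0.32). In the same comparison 8 of 8 osteoclast markers rose, 2 of 14 macrophage markers rose and 3 fell, and 0 of 4 T and NK cell markers rose and 1 fell. Deviations of *Bst2* from the group and sex means followed those of macrophage markers with r = 0.80 over the 36 libraries. The values were 0.75 for T and NK cell markers and 0.73 for osteoclast markers. The part of these cells in the rise was not tested. The log2 difference of ABE mice was -0.25 from saline mice (95% interval from -0.46 to -0.04, limma adjusted p = 0.0561) and 0.07 from WT (from -0.14 to 0.29, limma adjusted p = 0.552). Neither was called.

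*Cxcl10*, a chemokine that draws T cells, was the lowest member and did not pass the filter, with 16 to 214 reads per library (median 89.5). It ran from 0.0646 to 0.405 scaled TPM in WT (median 0.197), from 0.0861 to 0.226 in saline mice (median 0.144) and from 0.0424 to 0.256 in ABE mice (median 0.154). The groups overlapped throughout, and the WT males alone spanned 0.0646 to 0.405. With no filter on low values it was not called in any comparison (limma adjusted p = 0.173 for saline against WT, 0.254 for ABE against WT and 0.856 for ABE against saline).

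**Figure D2:**
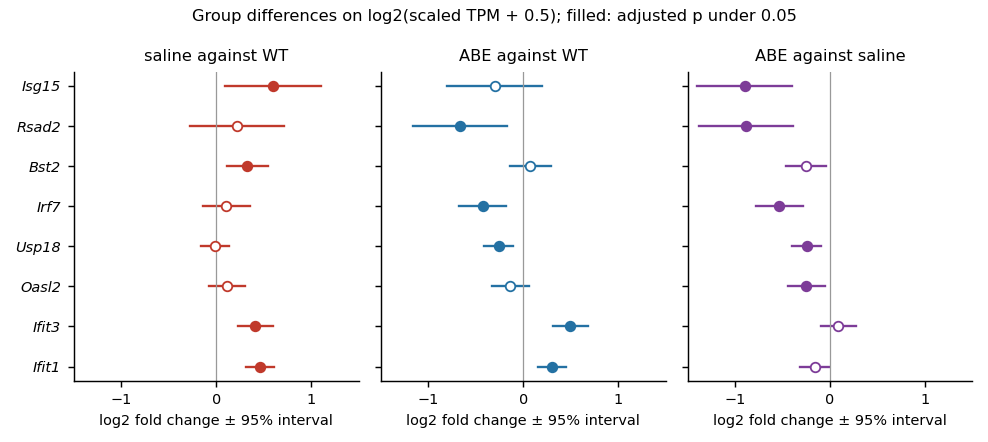
Log2 fold change of 8 members with its 95% interval (horizontal axis) in each of the 3 comparisons, with filled points where the adjusted p was under 0.05. *Ifit1* and *Ifit3* lie to the right of 0 in both comparisons with WT, while *Isg15*, *Rsad2*, *Irf7*, *Usp18* and *Oasl2* are called to the left of 0 between ABE and saline mice.

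Markers of blood cells also differed between the groups. Beside the counts of markers, 27.7% of all tested genes rose and 24.6% fell in saline mice against WT. The shares were 35% and 35.2% in ABE mice against WT, and 23.2% and 25.1% from saline to ABE mice. The summed level of 10 erythroid markers ran from 131 to 369 scaled TPM in WT (median 268), from 103 to 372 in saline mice (median 286) and from 25.3 to 269 in ABE mice (median 133). Of 9 tested, 8 fell and 0 rose from saline to ABE mice, among them the band 3 anion exchanger *Slc4a1* (means of 110 and 55.2 scaled TPM) and the haem enzyme *Alas2* (76.4 and 38.6). Of 15 neutrophil markers, 12 fell and 0 rose in the same comparison, with *S100a9* at means of 1052 and 659 and *Ngp* at 469 and 320. In saline mice against WT, 0 erythroid markers rose and 2 fell, 4 neutrophil markers rose and 0 fell, and 2 monocyte and macrophage markers rose and 3 fell. In ABE mice against WT, 8 of 9 erythroid and 4 of 15 neutrophil markers fell and 0 rose, where 35.2% of all genes fell.

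The libraries at the extremes of *Isg15* were often those at the extremes of the erythroid sum. The WT females 604F and 603F were the lowest and the highest WT mice in both, the saline male M309451 was the lowest saline mouse in both, and the ABE mice F109436 and M409458 were the lowest and the highest in both. After subtraction of the mean of each group and sex, *Isg15* followed the mean log2 level of the erythroid markers over the 36 libraries with Pearson's r = 0.89 (Spearman's rho = 0.83) and *Rsad2* with r = 0.90 (rho = 0.87). Without the 2 libraries farthest from the median of the markers, r was 0.84 and 0.87. Within WT, saline and ABE mice taken singly, r was 0.90, 0.94 and 0.87 for *Isg15* and 0.96, 0.96 and 0.86 for *Rsad2*. The values were lower for *Irf7* (0.63), *Usp18* (0.56), *Oasl2* (0.44), *Bst2* (0.33) and *Ifit1* (0.31), and *Ifit3* stood at -0.22. Within WT, saline and ABE mice, r was 0.47, -0.38 and 0.44 for *Ifit1* and -0.38, -0.61 and -0.05 for *Ifit3*. Some members had higher values with other lists: *Irf7* with T and NK cell markers (0.70) and macrophage markers (0.69), and *Oasl2* with T and NK cell markers (0.65) and muscle markers (-0.66). With the neutrophil markers r was 0.76 for *Isg15*, 0.73 for *Rsad2*, 0.60 for *Irf7*, 0.59 for *Bst2*, 0.53 for *Oasl2*, 0.52 for *Usp18*, 0.39 for *Ifit1* and -0.15 for *Ifit3*. Within WT, saline and ABE mice, r of *Ifit1* with them was 0.77, -0.19 and 0.49. With muscle markers *Ifit1* had r = -0.46. Genes and markers come from the same libraries and share their depth and scaling, so these values are descriptions.

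**Figure D3:**
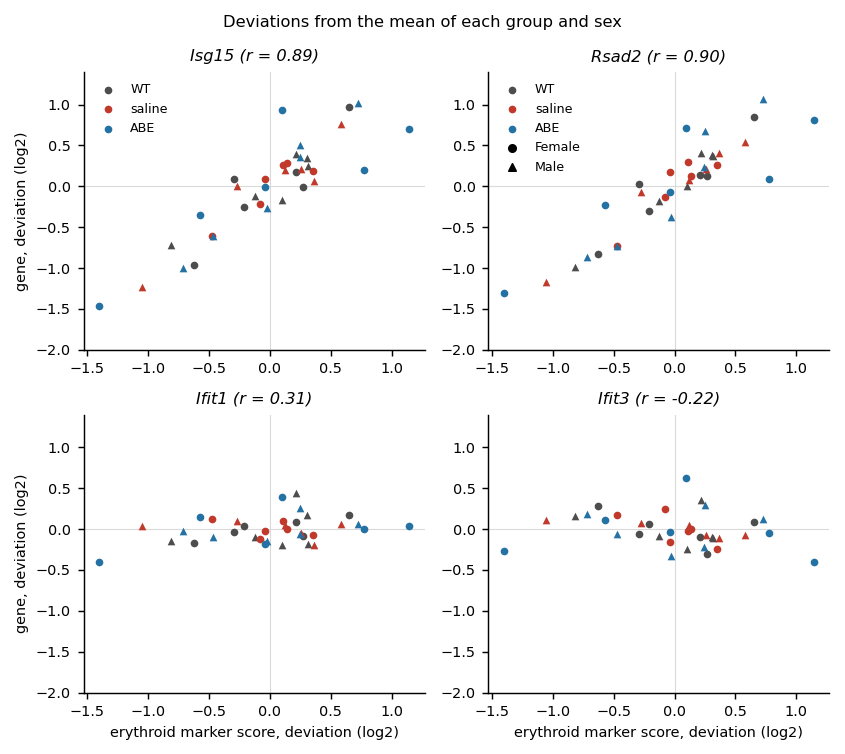
Deviation of 4 members from the mean of their group and sex (vertical axis, log2) against that of the erythroid marker score (horizontal axis, log2), 1 point per mouse, coloured by group. *Isg15* and *Rsad2* climb with the score (r = 0.89 and 0.90), while r was 0.31 for *Ifit1* and -0.22 for *Ifit3*, whose deviations are smaller.

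With the erythroid score as a further covariate, 0 of 8 members were called between ABE and saline mice. Few genes of any kind were: 0.264% of all tested genes were called lower in that fit, against 25.1% without the score, so the count of 0 is no result about the members. The log2 difference of *Isg15* was then -0.01 ± 0.14 (SE) in place of -0.90, and that of *Irf7* was -0.22 ± 0.12 in place of -0.53. *Rsad2* and *Usp18* stood at 0.00 and -0.08, and *Oasl2* at -0.07. With the neutrophil score 0 members were called as well, beside 3.61% of all genes called lower, with -0.37 ± 0.20 for *Isg15* and -0.32 ± 0.12 for *Irf7*. The IFIT genes kept their calls against WT in both fits: with the erythroid score, *Ifit1* was at 0.47 ± 0.07 in saline and 0.40 ± 0.09 in ABE mice (limma, adjusted p = 2.35e-06 and 0.000346), and *Ifit3* was at 0.41 ± 0.09 and 0.41 ± 0.11 (limma, adjusted p = 0.000347 and 0.00274). *Isg15* against WT was then called higher in both saline mice (0.63 ± 0.12) and ABE mice (0.62 ± 0.15), and *Rsad2* in saline mice (0.25 ± 0.11, limma adjusted p = 0.0486). The falls in ABE mice against WT were lost for *Irf7* (-0.10), *Usp18* (-0.08) and *Rsad2*, which stood at 0.25 ± 0.14, in a fit that called 24.8% of all genes lower. The shares of all genes called higher against WT with either score are not given here, so the calls that were kept are no result about the members. The erythroid fit was added after these values were seen, and the part of blood cells in the differences was not tested.

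**Figure D4:**
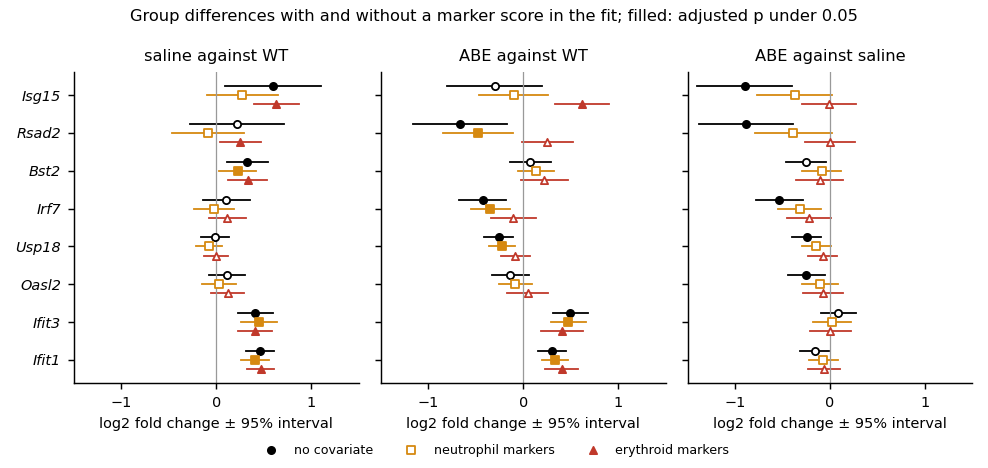
Log2 fold change and 95% interval of 8 members (horizontal axis) with no covariate, with the neutrophil score and with the erythroid score in the fit, in each of the 3 comparisons; filled points have an adjusted p under 0.05. Between ABE and saline mice the 5 filled points without a covariate become open with either score. Against WT *Ifit1* and *Ifit3* stay filled. The fits call unlike shares of all genes: with the erythroid score 0.264% were called lower between ABE and saline mice and 24.8% in ABE mice against WT.

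Other marker lists differed between groups as well. All 7 tested osteocyte markers rose in saline and in ABE mice against WT, and their sum ran from 18.1 to 57.5 scaled TPM in WT and from 183 to 511 in saline mice. Skeletal muscle markers rose in ABE mice against WT (10 of 10) and against saline mice (9 of 10), and their highest sum stood in F109436. B cell markers fell in saline mice (10 of 12) and in ABE mice (11 of 12) against WT. Between ABE and saline mice 9 of 14 monocyte and macrophage, 4 of 4 T and NK cell and 7 of 8 osteoclast markers fell. Of 8 osteoblast markers 2 fell, beside 25.1% of all genes, and 4 of 8 endothelial markers rose, beside 23.2%. Of plasmacytoid dendritic cell markers, for cells that make much type I interferon, 5 of 8 were tested and 1 rose and 1 fell, and the highest of them, *Cox6a2*, is also a muscle gene.

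In saline mice 4 of 8 tested members had all 6 females above all 6 males, where 1.08% of all tested genes did so. These were *Ifit1* (0.910 to 1.18 scaled TPM in females, 0.534 to 0.767 in males), *Oasl2* (1.59 to 1.80 and 0.852 to 1.33), *Irf7* (3.21 to 3.999 and 1.60 to 2.93) and *Usp18* (0.997 to 1.22 and 0.548 to 0.984). In WT and in ABE mice 0 of the 8 did so, where 0.333% and 0.591% of genes did. In a test of females against males within each group, added after these values were seen, 0 of 8 members were called in WT, saline or ABE mice, beside 0.208%, 0.308% and 2.95% of genes called higher in females. At an unadjusted p under 0.05 stood 1 member in WT (*Ifit3*), the 4 named ones in saline mice and 0 in ABE mice. How many of all genes stood there was not counted. The closest was *Ifit1* in saline mice, with a log2 difference of 0.37 ± 0.10 (SE; limma, adjusted p = 0.0867). The erythroid sum in saline mice ran from 181 to 351 in females and from 103 to 372 in males. Medians of other sums in saline females and males were 2777 and 2698 for neutrophil and 8.99 and 9.02 for T and NK cell markers. They were 29.4 and 20.5 for B cell, 2114 and 3150 for muscle and 332 and 460 for osteoclast markers. The part of these cells in the separation by sex was not tested. Whether a group difference was itself unequal between the sexes was tested as an interaction, and 0 of 8 members were called in any comparison, beside 1.03%, 3.68% and 0.0566% of all genes for saline against WT, ABE against WT and ABE against saline. The smallest adjusted p of a member was 0.256 (limma), and 0 of 8 had an unadjusted p under 0.05. Of all 15902 tested genes 3634, 3184 and 2508 had such a p in the same order of comparisons. In either sex alone, with 6 mice a group, 6 members were called lower in ABE than in saline females, *Ifit1* and the 5 called in both sexes together, beside 14.1% of all genes, and 0 in males, beside 10.5%.

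Mice of one group differed widely in some members and little in others. The within-group SD of *Isg15*, after the mean of each sex was removed, was 0.54 in WT, 0.53 in saline mice and 0.81 in ABE mice on the log2 scale, and that of *Rsad2* was 0.55, 0.52 and 0.78. These were above the SD of 85.4%, 83.1% and 86.0% of tested genes for *Isg15*. *Ifit1* was the steadiest of the 8 in saline mice, at 0.10, with 27.1% of genes below it, and *Oasl2* followed at 0.11. The 0.5 added before the logarithm narrows the log2 SD of low genes such as *Ifit1*. On the linear scale the coefficient of variation was taken over both sexes together, so it includes any gap between females and males. It was highest in ABE mice for *Isg15* (52.0%) and *Rsad2* (53.2%) and lowest in saline mice for *Ifit3* (12.6%). For *Usp18* it was 24.1% in WT, 21.9% in saline mice and 22.8% in ABE mice. Within 1 sex the order could differ. In saline females it was 4.26% for *Oasl2* and 16.2% for *Ifit3*, and in saline males 15.1% and 8.11%. In a limma test of absolute deviations 0 of 8 members were called for a difference of spread in any comparison, beside 0.887%, 5.82% and 1.47% of all genes for saline against WT, ABE against WT and ABE against saline. The smallest adjusted p was 0.159 (limma), for *Oasl2* between ABE and saline mice. There 3 members (*Ifit3*, *Oasl2* and *Irf7*) had an unadjusted p under 0.05, against 0 in both comparisons with WT. Of all 15902 tested genes 2833 had such a p between ABE and saline mice. The numbers were 1381 for saline against WT and 4270 for ABE against WT. F109436 was the lowest ABE mouse in 7 of 9 members and F309431 the highest in 5, and M309451 was the lowest saline mouse in 7.

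The members did not move as 1 block between mice. After the mean of each group and sex was removed, *Isg15* and *Rsad2* followed each other most closely over the 36 libraries (r = 0.97, rho = 0.95). *Irf7* had high values with *Oasl2* (r = 0.89) and *Usp18* (0.88) as well as with *Isg15* (0.84) and *Rsad2* (0.79). *Oasl2* followed *Ifit1* with r = 0.80, and *Isg15* followed *Usp18* with r = 0.78. *Ifit3* had r = 0.03 with *Isg15* and -0.02 with *Rsad2*, against 0.58 with *Ifit1*, its relative on the same chromosome. *Bst2* had its highest values with *Oasl2* (0.66) and *Cxcl10* (0.63).

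**Figure D5:**
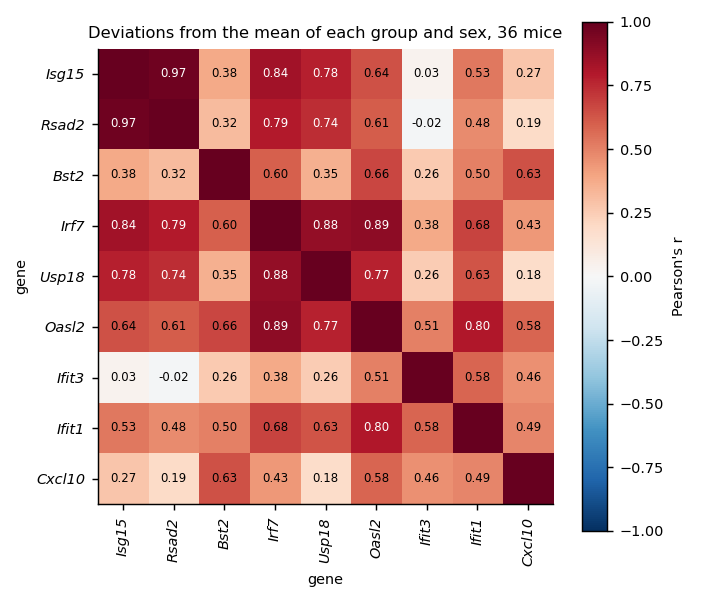
Pearson's r between each pair of members over 36 mice, after subtraction of the mean of each group and sex, with the value written in each cell. Off the diagonal the darkest cell is *Isg15* with *Rsad2* (0.97), and the palest cells are *Ifit3* with *Rsad2* (-0.02) and with *Isg15* (0.03).

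The 10 genes most like the mean of the members, of 12344 with a mean of at least 1 scaled TPM, were *Oas1a* (r = 0.92), *Ifih1* (0.90), *Parp14* (0.90), *Rtp4* (0.89), *Irgm1* (0.89), *Dhx58* (0.89), *Parp9* (0.88), *Slfn8* (0.88), *Rnf213* (0.88) and *Ddx58* (0.87). The measure was Pearson's r over the 36 libraries, after subtraction of the mean of each group and sex, with the mean of the standardised members. Except for *Rnf213*, each of the 10 stands on one of the pathway lists described next.

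Interferons themselves were barely seen. Of 21 ligand genes 0 passed the filter, and the highest number of reads in any library was 14, for *Ifng*. *Ifng* had means of 0.0217 scaled TPM in WT, 0.00896 in saline mice and 0.00726 in ABE mice. All 6 receptor genes passed the filter. For this and the following lists, the shares of all genes that rose and fell were 27.7% and 24.6% in saline mice against WT. They were 35% and 35.2% in ABE mice against WT, and 23.2% and 25.1% from saline to ABE mice. Against WT, 4 fell, 0 rose and 2 were not called in saline mice, and 4 fell, 1 rose and 1 was not called in ABE mice. *Ifnar1* had means of 3.88 ± 0.276 (SD, n = 12) in WT, 3.09 ± 0.276 in saline mice and 2.76 ± 0.274 in ABE mice, and *Ifnar2* had means of 4.21, 3.44 and 2.64. From saline to ABE mice 4 receptors fell, among them *Ifnar2* by 0.34 ± 0.09 on the log2 scale (limma, adjusted p = 0.00359), and *Ifngr2* rose by 0.27 ± 0.06 (limma, adjusted p = 0.00186). With the erythroid score r was 0.79 for *Ifnar2* and -0.67 for *Ifngr2*, and with the neutrophil score 0.85 and -0.53.

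Of 13 JAK, STAT and IRF genes, 1 rose and 9 fell in saline mice against WT, and 0 rose and 10 fell in ABE mice. The interferon regulatory factor *Irf8*, found in myeloid and B cells, had means of 5.79, 2.50 and 2.02 scaled TPM. From saline to ABE mice 4 of the 13 fell, a share near the 25.1% of all genes. *Irf9*, a DNA-binding subunit of the complex at the response element, led them at -0.31 ± 0.09 (limma, adjusted p = 0.00464). It followed the erythroid score with r = 0.84 and the neutrophil score with r = 0.75. The median log2 fold change of the 13 was -0.26 in saline mice and -0.43 in ABE mice against WT, and -0.12 between the 2.

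Of 12 tested nucleic acid sensors and adaptors, 2 rose and 6 fell in saline mice and 0 rose and 9 fell in ABE mice against WT. From saline to ABE mice 5 fell, led by the adaptor *Myd88* (-0.38 ± 0.08, limma adjusted p = 0.000837) and the DNA sensor *Aim2* (-0.35 ± 0.10, limma adjusted p = 0.00481), and the mitochondrial adaptor *Mavs* rose (0.22 ± 0.05, limma adjusted p = 0.0015). *Cgas* did not pass the filter, with means of 0.582, 0.489 and 0.360 scaled TPM. All 7 tested enzymes that clear or edit nucleic acids fell from saline to ABE mice, with a median log2 difference of -0.32. *Dnase2a*, which digests DNA in lysosomes, fell the most (-0.41 ± 0.08, limma adjusted p = 0.000765), and *Adar*, the editor of double-stranded RNA, fell by 0.30 ± 0.09 (limma, adjusted p = 0.00663). *Dnase2a* followed the erythroid score with r = 0.86 and *Rnaseh2b* with r = 0.92. The values were 0.91 for *Aim2*, 0.76 for *Adar*, 0.70 for *Myd88* and -0.21 for *Mavs*. With the neutrophil score *Myd88* had r = 0.86. *Trex1* was listed at 0 in every library.

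Of 8 inhibitors of interferon signalling, 3 rose and 4 fell in saline mice against WT, and 2 rose and 5 fell in ABE mice. *Socs3*, which is induced by cytokines that act through STAT3, had means of 2.06 ± 0.465 (SD, n = 12) in WT, 4.56 ± 0.679 in saline mice and 2.97 ± 0.793 in ABE mice. It rose by 0.99 on the log2 scale in saline mice (limma, adjusted p = 7.26e-10) and fell by 0.57 ± 0.10 from saline to ABE mice (limma, adjusted p = 0.000241).

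The machinery that joins ISG15 to proteins was lower in ABE mice. All 3 tested genes fell from saline to ABE mice and from WT to ABE mice, and 2 fell and 0 rose from WT to saline mice. *Ube2l6*, the conjugating enzyme, had means of 20.4 ± 6.44 (SD, n = 12), 23.9 ± 6.96 and 12.5 ± 5.67 in WT, saline and ABE mice and fell by 0.99 ± 0.24 on the log2 scale from saline to ABE mice (limma, adjusted p = 0.00187). *Uba7*, the activating enzyme, had means of 6.04, 3.46 and 2.61. The deviations of *Ube2l6* from the group and sex means followed the erythroid score with r = 0.95.

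Of 47 other type I interferon targets tested, 12 rose and 13 fell in saline mice, and 6 rose and 26 fell in ABE mice against WT. In saline mice these numbers are near the shares of all genes, 27.7% and 24.6%. From saline to ABE mice 1 rose and 23 fell, with a median log2 difference of -0.20 beside -0.02 for all genes. The exonuclease *Isg20* fell by 0.92 ± 0.23 (limma, adjusted p = 0.00217) and followed the erythroid score with r = 0.96. The membrane protein *Ifitm1*, which blocks viral entry, had means of 2.51 ± 0.374 (SD, n = 12), 4.71 ± 0.541 and 3.13 ± 0.789. It rose by 0.79 in saline mice (limma, adjusted p = 4.89e-09) and fell by 0.55 ± 0.09 from saline to ABE mice (limma, adjusted p = 0.000128). Its r was 0.46 with the erythroid score and 0.60 with the neutrophil score. *Oas3* fell by 0.57 ± 0.18 from saline to ABE mice (limma, adjusted p = 0.0118). With the erythroid score r was 0.87 for *Oas3* and 0.92 for *Cmpk2*. The 1 gene that rose was *Ifit3b*, by 0.25 (limma, adjusted p = 0.00242), and its r with the erythroid score was -0.51.

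Of 19 interferon gamma targets tested, 2 rose and 8 fell in saline mice and 1 rose and 10 fell in ABE mice against WT, and 2 rose and 9 fell from saline to ABE mice. The peptide transporter *Tap1* had means of 4.34, 2.81 and 2.20 scaled TPM and fell by 0.31 ± 0.11 from saline to ABE mice (limma, adjusted p = 0.0183). The immunoproteasome subunit *Psmb8* fell by 0.31 ± 0.12 in the same comparison (limma, adjusted p = 0.0306). The lists share genes and libraries with one another, *Ube2l6*, *Uba7* and *Trim25* being on both the ISGylation and the type I target lists.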

How the data were processed

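Bulk RNA from tibia of 36 mice was sequenced in strand-specific poly(A) libraries. The authors aligned reads to GRCm38 with STAR (2.73a in the submitters' processing notes), counted GENCODE genes with QoRTs and deposited TPM. How TPM were calculated was not given in the sources used here. The deposited table also holds a GC fraction, which was not used. TPM were divided by a median ratio size factor from 23632 genes above 0 in every library. Recovered reads are TPM multiplied by length less 218 bp, of which 100% were whole within 0.01. Columns were mapped by name, with 0 left over and 0 identical libraries.

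Genes were fitted with limma 3.58.1 (R 4.3.3) on log2(scaled TPM + 0.5), all 36 libraries together, with sex as a covariate and Benjamini-Hochberg adjustment at 0.05. Intervals are 1.96 SE. Interaction and spread used cell means and absolute deviations. The method was checked on simulated data. The members and gene lists were chosen with earlier results of these data known. Genes named in a pathway list had a mean of at least 1 in a group and were among the 4 with the largest called change between ABE and saline mice, or else among the 2 highest; in a marker list they were among the 2 highest. *Irf8*, *Cgas*, *Trex1*, *Ifit2*, *Ifit3b*, *Cmpk2*, *Adar*, *Uba7*, *Rnaseh2b*, *Cox6a2* and *Ifng* were named outside this rule, after their values were seen. Figures used matplotlib 3.10.9. Coordinates are those of GENCODE vM21.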

Additional observations from a re-analysis of the deposited data

How the results depend on the processing

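The count of called members depended on the setting. For saline against WT, 4 members were called, against 1 with TPM as deposited, 1 with a filter at a mean of 5 (where 3 members remain), 2 with 4 cell type covariates (neutrophil, B cell, macrophage and muscle) and 1 in females alone. For ABE against WT, 5 were called, against 1 with the filter at 5 and 3 with the 4 covariates, with the erythroid covariate, in females alone and in males alone. With the erythroid covariate and with the 4 covariates the 3 were all higher, and the falls of *Rsad2*, *Irf7* and *Usp18* were lost. With TPM as deposited 5 were called, all lower, *Isg15* and *Oasl2* among them and neither *Ifit1* nor *Ifit3*. For ABE against saline, 5 were called, against 2 with the filter at 5, and 0 with the neutrophil covariate, the 4 covariates, the erythroid covariate and males alone. Of all genes 25.1% were called lower in this comparison, against 3.61% with the neutrophil covariate, 0.264% with the erythroid covariate and 10.5% in males alone. A count can follow the share of all genes called, so the counts alone are no result about the members. The shares for most other settings are not given here. Without 1 library the counts were 3 to 4, 5 to 5 and 4 to 7. In 0 settings was a member called for interaction or spread, and 1 member was called lower in females of the ABE group with TPM as deposited, against 0. TPM as deposited shifted the median log2 fold change of all genes by -0.13, -0.42 and -0.27, and 21.9%, 13.5% and 7.47% of its calls were rises, against 53.0%, 49.8% and 48.0%. Whether the cell type scores act as causes was not tested.

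Log2 fold changes with the other sign were, with the 4 covariates, 0.17 for *Isg15*, 0.30 for *Oasl2* and 0.14 for *Irf7* (ABE against WT), 0.11 for *Bst2* and 0.012 for *Oasl2* (ABE against saline) and 0.10 for *Usp18* (saline against WT). With the erythroid covariate they were 0.62 for *Isg15*, 0.25 for *Rsad2* and 0.046 for *Oasl2* (ABE against WT). With the neutrophil covariate they were -0.087 for *Rsad2* and -0.028 for *Irf7*, and in males alone -0.047 for *Rsad2*, -0.011 for *Oasl2* and -0.060 for *Irf7* (saline against WT). With TPM as deposited they were -0.44 for *Bst2* (ABE against WT), -0.18 for *Ifit3* (ABE against saline), -0.031 for *Oasl2* and -0.066 for *Irf7* (saline against WT). *Usp18* stood at 0.052 in females alone and from -0.051 to 0.020 without 1 library (saline against WT). Of these values only *Isg15* with the erythroid covariate was called, and the cause of the changes of sign was not tested. No paired analysis was possible because the labels number no replicates across groups.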
